A study of Mus musculus with 12 samples.

Results

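Early thymic progenitors are the most immature T-lineage precursors of the thymus, and their baseline transcriptome is described here from the control libraries of a mouse leukaemia series. The control cells came from C57BL/6 mice with the genotype Ezh2 fl/fl Runx1 fl/fl and without a Cre recombinase, so that both genes carried loxP sites on each allele but no recombinase was given to delete them. The 4 libraries were chosen by their labels, out of 12 in the series, and each held the messenger RNA of 100 sorted cells. The labels used here give neither the sort gate nor the age of the mice, and do not say that the libraries came from separate animals. The spread between libraries may therefore be partly technical. The mutant libraries of the series were not compared.

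Progenitors that seed the thymus arrive from the bone marrow carrying the receptor tyrosine kinases Flt3 and Kit, and Notch signals from the thymic epithelium then direct them to the T lineage. At this stage the cells are known to keep options besides the T lineage, among them myeloid, dendritic and natural killer fates, while genes of the antigen receptor machinery are only partly active. The genes below are therefore ordered by lineage programme, from lymphoid through T-lineage, myeloid, stem and dendritic genes to those of other cells.

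Levels are in RPKM, the reads of a gene scaled to its length and to the size of the library. Comparisons between genes are approximate, since differences between these libraries still varied with gene length, as given below. Per-library values are always given in the order control 1, 2, 3 and 4. A gene is called detected in a library at 1 RPKM or more. The whole reads behind the RPKM values totalled 20050073 to 27996762 per control library. In bulk samples of this kind a low level can mean few cells with the transcript or little transcript per cell, and these cannot be told apart.

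All 4 markers of early thymic progenitors were detected in every library, as were 58.8% of all genes. The median of their median levels was 155 RPKM, against 6.05 RPKM over all genes. Detection of these 4 genes does not by itself settle the identity of the cells. Dntt encodes terminal transferase, which adds bases at antigen receptor joints. It lies on chromosome 19 from 41029275 to 41059525 (GRCm38) and stood at 389, 987, 1379 and 1029 RPKM, a mean of 946 ± 411 RPKM (SD, n = 4), placing it at rank 101 of 13016 genes by median level. Cd7 encodes a surface glycoprotein of early lymphoid cells (chromosome 11, 121036747 to 121039418). Its values were 110.4, 354, 332 and 139 RPKM, high in control 2 and 3 and lower by more than a factor of 2 in the others. Flt3 (chromosome 5, 147330741 to 147400489) encodes a cytokine receptor of multipotent and lymphoid progenitors and was at 88.03, 53.3, 62.03 and 109.8 RPKM. Kit, the receptor for stem cell factor (chromosome 5, 75574916 to 75656722), was at 69.9, 58.2, 44.7 and 59.5 RPKM. By mean level the order was Dntt, Cd7, Flt3 with 78.3 ± 25.7 and Kit with 58.1 ± 10.3 RPKM (SD, n = 4). Dntt stayed above Cd7 in every library and the ranges of Flt3 and Kit overlapped. The lowest Cd7 value was only just above the highest Flt3 value. Dntt in control 1 was under every value of the other libraries, by more than a factor of 2.

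Cd7 had no promoter entry, so its start is not shown. The starts of Flt3, Kit and Dntt differ in base composition. The 250 bases before the RefSeq start of Flt3, Kit and Dntt are printed to show this. The capitals mark each CG dinucleotide, the site of DNA methylation in mammals, read on the gene's strand (the motif is the same on both). The sequences are from RefSeq on GRCm38.p6, using the entry listed for each gene. The stretches lie at chr5:147400490-147400739 (minus strand) for Flt3, chr5:75574737-75574986 (plus) for Kit and chr19:41029025-41029274 (plus) for Dntt. The RefSeq start of Kit lies downstream of the start given above, so the last 71 bases of its stretch are within the gene as GENCODE draws it.
Flt3: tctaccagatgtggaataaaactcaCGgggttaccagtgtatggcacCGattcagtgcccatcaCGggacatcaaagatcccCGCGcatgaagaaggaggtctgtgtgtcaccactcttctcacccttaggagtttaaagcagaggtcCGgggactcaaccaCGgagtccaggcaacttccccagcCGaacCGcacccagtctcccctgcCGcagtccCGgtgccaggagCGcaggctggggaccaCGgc
Kit: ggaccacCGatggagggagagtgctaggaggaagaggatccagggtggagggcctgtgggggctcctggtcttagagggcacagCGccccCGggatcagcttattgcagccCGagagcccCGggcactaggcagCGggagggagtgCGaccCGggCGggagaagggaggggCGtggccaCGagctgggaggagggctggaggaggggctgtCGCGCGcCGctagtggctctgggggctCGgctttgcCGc
Dntt: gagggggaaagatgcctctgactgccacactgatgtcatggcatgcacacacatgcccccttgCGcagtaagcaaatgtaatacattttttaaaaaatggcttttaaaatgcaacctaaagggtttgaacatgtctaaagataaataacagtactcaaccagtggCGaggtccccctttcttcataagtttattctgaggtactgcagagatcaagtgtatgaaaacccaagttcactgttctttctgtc
Kit held 17 CG dinucleotides and Flt3 13, which 23.6% and 31.9% of 27025 promoters of the same length reach. Dntt held 2, which 80.6% reach. A relation of CG number to level was not tested.

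The libraries agreed unequally. Across 9771 genes with a median of at least 1 RPKM, Pearson's r of log2(RPKM + 1) was 0.922 between control 2 and 3, 0.864 between control 2 and 4, and 0.861 between control 3 and 4. Control 1 stood apart, with r of 0.799, 0.790 and 0.785 to control 2, 3 and 4. These are correlations across genes, which are not independent replicates. The mean over the 6 pairs was 0.837 ± 0.0548 (SD), and it was 0.883 over the pairs without control 1. Control 2 and 3 were within 1 log2 unit of each other for 80.5% of these genes, and control 1 and 3 for 55.7%. No library was a copy of another, since reads of each pair differed by a chi-square per degree of freedom of 107 to 467.

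The difference of control 1 from the others varied with gene length, though not steadily. Genes under 1000 bases had a median log2 difference of −0.20 between control 1 and the median of the other libraries, over 893 genes. Genes of 1000 to under 2000 bases had a median log2 difference of −0.57, over 2297 genes. At 2000 to under 4000 bases it was −0.09, over 3941 genes. Those of 4000 bases or more had 0.32, over 2640 genes. In control 4 the same medians stayed between −0.04 and 0.01 over all length groups, and in control 2 between −0.07 and 0.08. Control 3 went the opposite way from control 1, at 0.20 for the genes of 1000 to under 2000 bases and −0.18 for the longest. Dntt has 2130 and Cd7 1040 bases, Flt3 3656 and Kit 5181, and control 1 was the lowest library for Dntt and Cd7 and the highest for Kit. The part of length in these values was not tested.

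**Figure D1:**
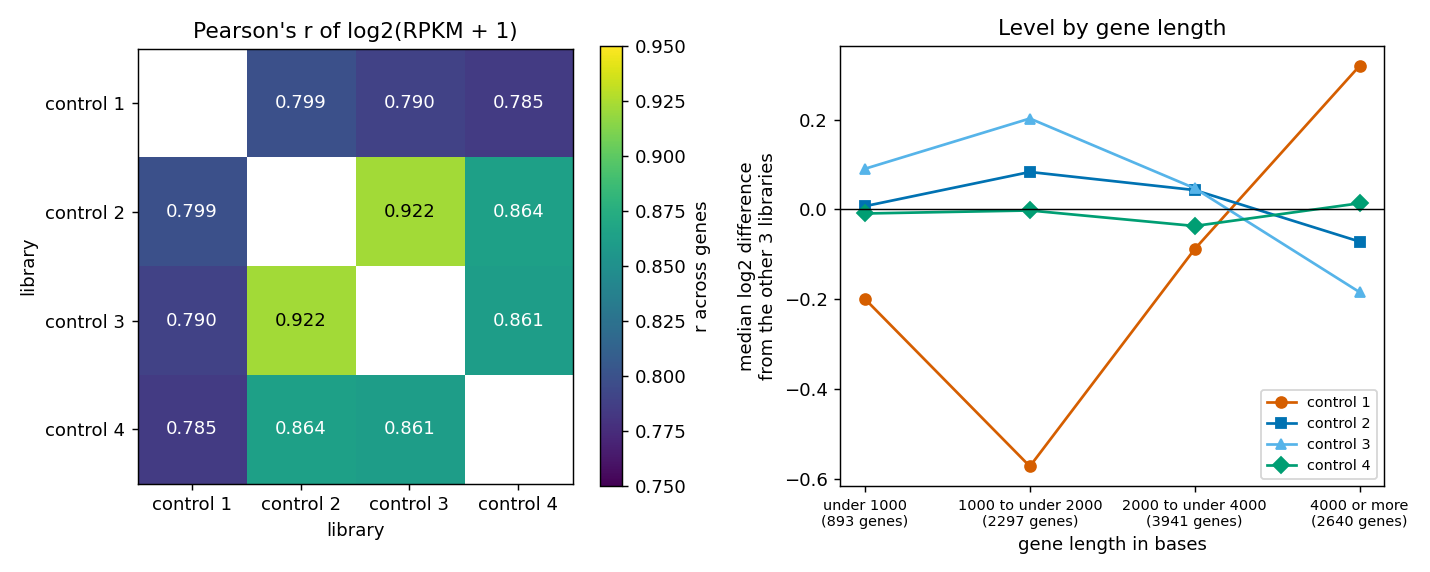
Left, Pearson's r of log2(RPKM + 1) across 9771 genes for each pair of control libraries, from 0.785 to 0.922. Right, the median log2 difference of each library (lines) from the median of the other 3, for genes grouped by length on the x axis, where control 1 runs from −0.57 to 0.32.

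Of the 13016 genes, 929 had a median of 100 RPKM or more, 4306 were at 10 to under 100, 4536 at 1 to under 10, and 3061 above 0 but under 1. Another 184 were listed at 0 in all 4 libraries. The most abundant class, 7.14% of the genes, made up 72.9% of the summed RPKM. Detection was shared for most genes: 7659, or 58.8%, were at 1 RPKM or more in all 4 libraries and 1802, or 13.8%, in none. The remaining genes were detected in 3 libraries (1393), in 2 (1086) or in 1 (1076). Without control 1 the number detected in every remaining library was 8061, and without control 2, 3 and 4 it was 7887, 7957 and 8124. Asking fewer libraries can only keep or raise this number.

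The spread between libraries was far larger than counting error at every level. Genes of 100 RPKM or more had a median coefficient of variation of 25.8%, where the reads alone give 1.19%. At 10 to under 100 RPKM the values were 39.5% and 2.51%, and at 1 to under 10 RPKM 67.3% and 5.24%. The counting values cover counting error only, since amplified reads from so few cells do not each stand for a separate molecule. Losses of a gene in a single library were most frequent in control 1, where 33 genes were under 1 RPKM while the other libraries all had at least 10. Control 4 had 23 such genes, control 2 had 2 and control 3 had 1. These were out of 4158, 3788, 3823 and 3883 genes at 10 RPKM or more in the other libraries, for control 1 to 4. The converse, at least 10 RPKM in a single library and under 1 in the others, held for 17, 7, 1 and 8 genes.

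The highest levels belonged to the translation machinery and the cytoskeleton. Of the 25 genes with the highest median, predicted genes and pseudogenes left out, 19 encoded ribosomal proteins of the Rpl and Rps families. The others included Actb, Ppia, B2m, Eef1a1 and Ptma. Actb, cytoplasmic actin, led at 8375, 5872, 7484 and 8297 RPKM. B2m, the light chain of class I antigen-presenting molecules, was at 5014, 7073, 5448 and 6458 RPKM, with its lowest value in control 1. Rpl23a, of the large ribosomal subunit, was nearly even at 4562, 4679, 4496 and 4444 RPKM. Rpl3, of the same subunit, spread more, at 1795, 4618, 5135 and 2988 RPKM. The elongation factor gene Eef1a1 was at 2514, 6717, 7384 and 4077 RPKM, in the same order of libraries as Rpl3, with control 1 lowest and control 3 highest. Ribosomal genes can have near-identical pseudogene copies, and the labels used here do not say how such reads were assigned.

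Genes of lymphoid priming had the highest typical level of the lists other than that of the 4 markers. The list itself holds the markers Dntt, Cd7 and Flt3, and also Lck of the T specification list. Its level is therefore not independent of the markers. Of 25 listed genes 23 had a row, 19 of them were detected in all 4 libraries and none was missing from all. The median of the members' medians was 51.7 RPKM, against 6.05 RPKM over all genes of the table, where 58.8% were detected in all 4. After Dntt the highest was Il2rg, the common gamma chain of interleukin receptors, at 348, 520.5, 516 and 757 RPKM. Cd27, a costimulatory receptor that marks lymphoid-primed progenitors, was at 289, 361, 449 and 266 RPKM. Control 1 was the lowest library for Il2rg but not for Cd27, whose lowest was control 4.

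Not all lymphoid genes were even. Il7r, the receptor chain for interleukin-7, was at 16.2, 21.01, 11.5 and 0.227 RPKM, so that control 4 was close to 0 while the other 3 libraries had more than 10. Ly6d, a surface protein that marks lymphoid progenitors turning towards the B lineage and some dendritic precursors, was at 81.7, 153, 202 and 16.99 RPKM and also lowest in control 4. Ly86, a partner of a Toll-like receptor, was at 0, 10.3, 18.8 and 9.31 RPKM, with no read in control 1. Of the recombinase genes, whose products cut antigen receptor loci, Rag2 was at 3.64, 20.9, 9.47 and 15.7 RPKM. Rag1 was at 0.0166, 1.78, 1.26 and 0.597 RPKM, below Rag2 in every library. Mef2c, a transcription factor of lymphoid priming, was at 25.5, 55.5, 48.02 and 78.1 RPKM and highest in control 4. Ikzf1, the Ikaros gene, was at 54.3, 41.3, 32.1 and 29.5 RPKM and highest in control 1. Ikzf3 and Ighm had no row and were not analysed here.

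**Figure D2:**
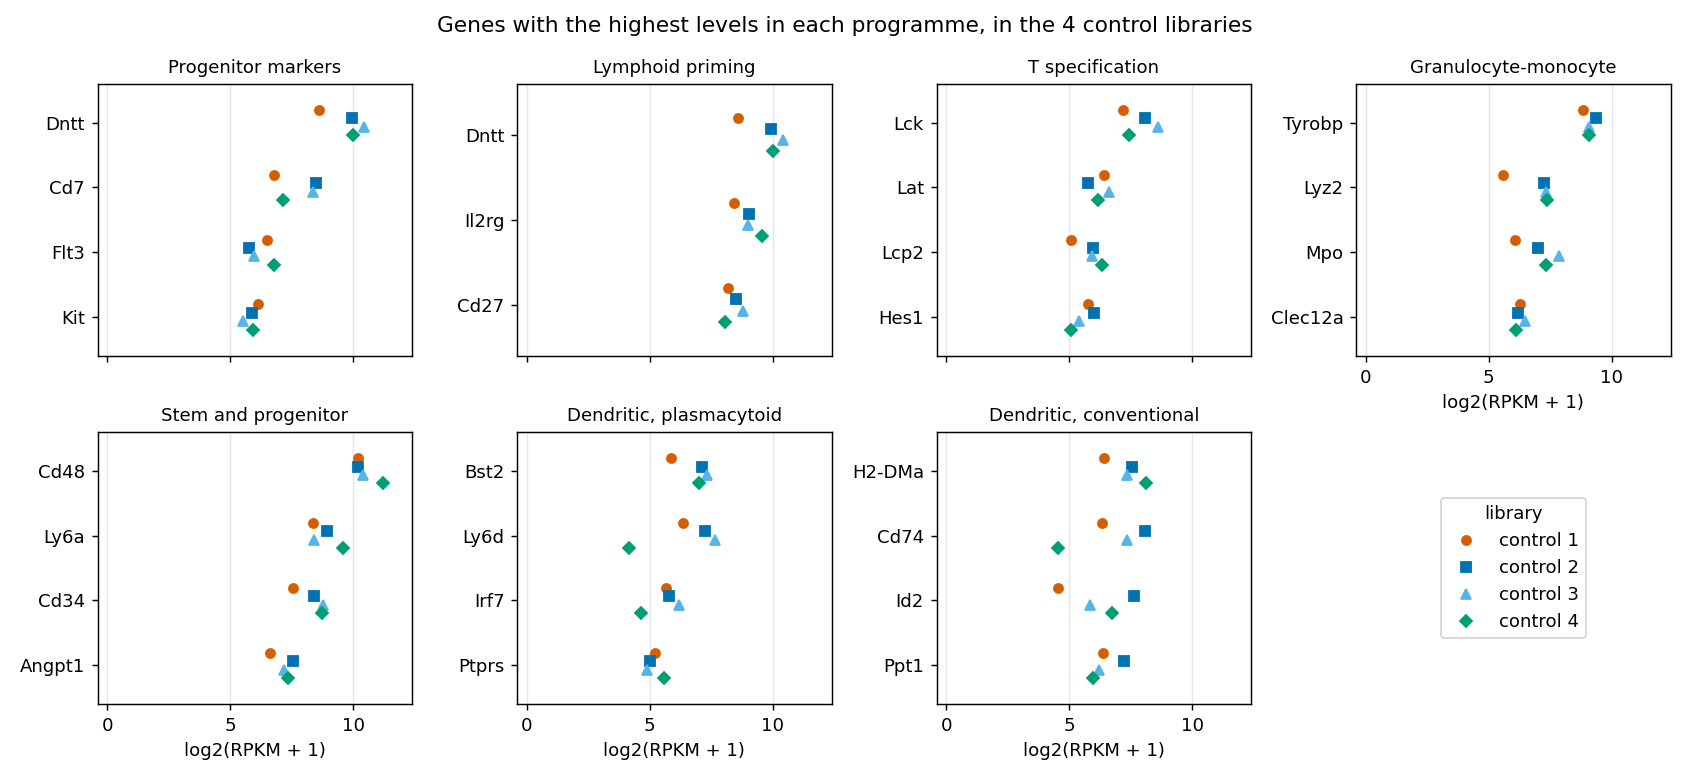
The x axes give log2(RPKM + 1) and each symbol is 1 control library, for the 4 progenitor markers and for 3 or 4 of the members with the highest medians in 6 lineage programmes. Dntt lies at 389 to 1379 RPKM, Cd48 at 1175 to 2377, and Ly6d and Cd74 show their lowest value in control 4.

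T-cell specification genes had a lower typical level than the lymphoid priming genes. Of 26 listed genes 20 had a row. Of these, 13, or 65%, were detected in all 4 libraries, against 58.8% of all genes, and 7 in 1 to 3. The median of medians was 13.2 RPKM. Lck, the kinase that starts T-cell receptor signalling, was the highest at 146, 269, 390.2 and 170.1 RPKM. Lat, the membrane adaptor of that pathway, was at 85.3, 53.996, 96.1 and 70.7 RPKM. Lcp2, another adaptor, was at 33.1, 60.8, 60.3 and 80.4 RPKM, with its lowest value in control 1. Receptor subunits were lower: Cd3d was at 1.75, 0.868, 1.81 and 1.46 RPKM, near the detection level in every library. Cd247, the zeta chain, was at 1.65, 2.75, 2.51 and 2.99 RPKM. Cd3g, the gamma chain, was at 0.108, 5.05, 0.196 and 4.54 RPKM and so was detected in control 2 and 4 alone. Lck, Lat and Lcp2 were thus above these subunits in every library. Zap70, the kinase recruited to the receptor, was at 0, 0.02302, 1.75 and 0 RPKM and detected in control 3 alone. Cd28, a costimulatory receptor, was at 0, 0, 0.0464 and 2.94 RPKM and detected in control 4 alone.

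The regulators of specification were intermediate. Gata3, a transcription factor required from the earliest T-lineage stage, was at 24.7, 30.3, 16.1 and 15.5 RPKM, above 15 in every library. Tcf7, which acts with it, was at 8.39, 42.4, 25.2 and 4.08 RPKM, and control 2 and 3 were at least 3 times as high as control 1 and 4. Runx3, a factor of the same family as Runx1, was at 33.7, 14.4, 20.3 and 7.501 RPKM. Il2ra, a cytokine receptor chain that is gained at the next stage, was at 4.99, 22.3, 17.3 and 0.2502 RPKM, again high in control 2 and 3 and close to 0 in control 4. Cd5, a negative regulator of receptor signals, was at 0.0356, 2.55, 10.8 and 0.0837 RPKM and detected in control 2 and 3 alone. Thy1, whose protein is widely used as a T-lineage marker, was at 8.12, 2.69, 3.74 and 1.197 RPKM. Bcl11b, Lef1, Cd3e, Cd2 and Themis were among the listed genes with no row and were not analysed here.

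Genes of later thymocytes were mixed. Of 18 with a row 9, or 50%, were detected in all 4 libraries, against 58.8% of all genes, and 3 in none. The median of medians was 7.83 RPKM. Those at high levels are not confined to thymocytes. Cd52, a small surface glycoprotein of lymphocytes, was at 463, 558, 507 and 708 RPKM. Tox, a nuclear factor, was at 23.4, 74.6, 71.1 and 51.1 RPKM. The defining coreceptor gene Cd4 was at 0.846, 2.12, 0.0777 and 0.358 RPKM, detected in control 2 alone. Cd8a, of the other coreceptor, was at 1.402, 2.56, 0.346 and 0.277 RPKM and its partner Cd8b1 from 0.0566 to 0.142 RPKM. S1pr1, the receptor for thymic exit, and Zbtb7b, the regulator of the CD4 lineage, were under 1 RPKM in every library. Trat1, an adaptor of the receptor complex, was at 0, 19.6, 13.7 and 9.06 RPKM, with no read in control 1. The summed level of the list was 684 to 969 RPKM over the libraries, most of it from Cd52. The part of more mature cells in the T-lineage values was not tested.

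Notch1, Notch2 and part of the pathway's targets were detected in every library. Of 26 pathway genes 23 had a row and 12, or 52.2%, were detected in all 4 libraries, against 58.8% of all genes. Notch1, the receptor that drives T-lineage entry, was at 40.5, 26.1, 23.6 and 30.2 RPKM. Notch2, a related receptor, was at 29.2, 22.6, 21.5 and 30.5 RPKM, and each of these varied by less than a factor of 2 over the libraries. Notch3 was under 1 RPKM in every library, from 0 to 0.273. Hes1, a direct target that encodes a repressor, was at 53.8, 62.8, 40.9 and 32.4 RPKM. Myc, a growth regulator and another target, was at 68.97, 158, 91.996 and 134 RPKM. Ptcra, the target that encodes the pre-T-cell receptor alpha chain, was at 22.4, 7.94, 5.15 and 22.5 RPKM and higher in control 1 and 4. The feedback target Nrarp was at 1.29, 1.09, 3.32 and 0.901 RPKM. Dtx1, a ubiquitin ligase gene and target, was at 1.3996, 1.05, 0.0108 and 0 RPKM, and neither reached 4 RPKM in any library. Ncstn, a subunit of the gamma-secretase that cuts Notch, was at 5.42, 36.6, 63.6 and 17.6 RPKM. Control 1 was its lowest library and control 3 its highest. The ligand gene Dll4 and the target Hey1 were listed at 0 in all 4 libraries, and the ligand gene Jag1 was detected in control 1 alone.

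Myeloid genes were divided. Of 40 granulocyte and monocyte genes 32 had a row. Of these, 14, or 43.8%, were detected in all 4 libraries, against 58.8% of all genes. Another 13 were detected in 1 to 3 and 5 in none. The median of medians was 3.46 RPKM. At the top was Tyrobp, a signalling adaptor of myeloid and natural killer cells, at 457, 652, 538 and 547 RPKM. Lyz2, lysozyme, was at 46.4, 150.4, 159 and 164 RPKM. Mpo, the peroxidase of granules, was at 65.97, 129, 229.7 and 161 RPKM. Control 1 was the lowest library for these 3 genes. Clec12a, an inhibitory lectin receptor, was nearly even at 76.4, 72.3, 87.96 and 67.5 RPKM. Ncf1, a subunit of the phagocyte oxidase, was at 26.6, 27.7, 16.3 and 1.196 RPKM.

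The remaining granule genes ranged widely. Lyz1, the other lysozyme gene, whose reads can be hard to part from those of Lyz2, was at 15.6, 19.4, 18.2 and 18.9 RPKM. Elane, the neutrophil elastase gene, was listed at 0 in all 4 libraries, as were the phagocyte oxidase gene Cybb and the coagulation factor gene F13a1. Prtn3, a serine protease of the same granules as elastase, was at 0, 3.98, 0 and 0 RPKM and detected in 1 library. Ctsg, cathepsin G, was at 0.442, 5.76, 13.7 and 8.12 RPKM and undetected in control 1. Ltf, lactoferrin of later granules, was at 0, 0.933, 0.0146 and 13.1 RPKM, detected in control 4 alone. Among the myeloid transcription factor genes, Spi1, listed under its older symbol Sfpi1, was at 32.5, 20.7, 30.1 and 25.4 RPKM, within a factor of 2 over the libraries. Irf8, a factor of monocytes and dendritic cells, was at 0.0783, 8.68, 0.0142 and 3.75 RPKM and so detected in control 2 and 4. Cebpb, a factor of later myeloid cells, was at 1.57, 1.83, 0.3998 and 0.506 RPKM. Csf1r, the receptor for macrophage growth factor, was at 11.3, 10.2, 4.54 and 40.2 RPKM. Csf3r, the receptor for granulocyte growth factor, was at 4.66, 2.41, 0.624 and 7.67 RPKM, and control 4 was highest for both receptors. Cebpa, Cebpe, S100a8, S100a9, Camp, Ngp, Ms4a3 and Cd14 had no row and were not analysed here.

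Mast cell and basophil genes had 1 member at a substantial level. Cpa3, mast cell carboxypeptidase, was at 16.2, 113, 78.3 and 94.1 RPKM, lowest in control 1 by more than a factor of 4. Mcpt8, a basophil protease, was at 0, 9.22, 12.7 and 8.55 RPKM. Gata2, a transcription factor of these cells and of stem cells, was at 0.546, 4.92, 0.754 and 0 RPKM and detected in control 2 alone. Of the 6 genes with a row Cpa3 was the single one detected in all 4 libraries, or 16.7%, against 58.8% of all genes.

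Stem and progenitor genes ranged from abundant to barely detected. Of 46 listed genes 44 had a row. Of these, 26, or 59.1%, were detected in all 4 libraries, near the 58.8% of all genes. Another 12 were detected in 1 to 3 and 6 in none. The median of medians was 11.7 RPKM. Cd48, a surface receptor of most blood cells but not of the stem cell itself, was at 1183, 1175, 1343 and 2377 RPKM. Ly6a, the Sca-1 antigen, was at 328, 485, 342 and 768 RPKM, and control 4 was highest for both. Cd34, a sialomucin of progenitors, was at 185, 339.7, 434 and 422 RPKM. Angpt1, a ligand of the Tie2 receptor, was at 96.4, 189, 146 and 162 RPKM. Among transcription factor genes of progenitors, Fli1 ranged from 101 to 167 RPKM, Hhex from 85.6 to 182, Myb from 38.5 to 98.5, Lyl1 from 25.2 to 43.8 and Meis1 from 19.8 to 30.8, so that all 5 were detected in every library. The floxed genes were themselves expressed. Ezh2, the Polycomb methyltransferase, was at 45.7, 32.8, 43.3 and 37.4 RPKM. Runx1, a core factor of blood formation, was at 24.96, 18.3, 16.3 and 25.3 RPKM.

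Several stem cell genes, chosen after their values were seen, were low or detected in few libraries. Hlf, a stem cell transcription factor, was at 0.631, 2.14, 0.1698 and 0 RPKM and detected in control 2 alone. Tek, the Tie2 receptor, was under 1 RPKM in every library. Procr, a stem cell surface receptor, was at 0.539, 0.167, 0.426 and 11.3 RPKM, with control 4 apart. Slamf1, a surface marker of stem cells, was listed at 0 in all 4 libraries. Others were higher. Bmi1, a Polycomb gene of self-renewal, was at 24.1, 14.8, 25.8 and 0.0289 RPKM. Gfi1b, a repressor of stem and erythroid cells, was at 0.263, 12.42, 24.6 and 0 RPKM, and both were at or near 0 in control 4. Of the Hox genes, which set progenitor identity, Hoxa9 was at 33.4, 8.86, 8.84 and 13.6 RPKM. Hoxa7 was at 14.8, 9.95, 7.46 and 9.65 RPKM, in a range that overlapped that of Hoxa9. Hoxa5 was lower at 8.703, 4.999, 1.62 and 1.92 RPKM, and Hoxb4 stayed under 1 RPKM in every library.

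Some genes of plasmacytoid dendritic cells were detected, but not their defining lectin. Of 18 with a row 11, or 61.1%, were detected in all 4 libraries, near the 58.8% of all genes, and 1 in none, with a median of medians of 8.62 RPKM. Ly6d, described above, belongs to this list too. Bst2, an interferon-induced surface protein that these cells carry, was at 56.6, 137, 161 and 126 RPKM. Irf7, a factor of the interferon response, was at 50.1, 54.7, 72.2 and 23.9 RPKM. Cox6a2, a cytochrome oxidase subunit gene, was at 22.9, 17.2, 29.6 and 26.3 RPKM. Tcf4, the E-protein gene that specifies these cells, was at 13.2, 10.02, 9.02 and 14.9 RPKM. Runx2, a factor of their maturation, was at 8.07, 7.64, 13.1 and 6.17 RPKM, and both were detected in every library. Lair1, an inhibitory collagen receptor, was at 3.73, 17.8, 15.1 and 3.01 RPKM. Siglech, the defining lectin, was from 0.0334 to 0.126 RPKM, and Spib, another factor of these cells, from 0.216 to 1.15 RPKM.

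Antigen presentation genes of conventional dendritic cells differed widely between libraries. Of 23 genes with a row 9, or 39.1%, were detected in all 4 libraries, against 58.8% of all genes. Another 10 were detected in 1 to 3 and 4 in none, with a median of medians of 3.96 RPKM. H2-Aa, a class II chain, was at 0.483, 107, 47.3 and 8 RPKM. That was the widest range on the log2 scale of genes that reached 10 RPKM, predicted genes and pseudogenes left out. H2-Ab1, its partner chain, was at 23.03, 94.2, 54.3 and 13.99 RPKM. H2-Eb1, a chain of the other class II molecule, was at 0.0221, 34.1, 14.05 and 0 RPKM. Cd74, the invariant chain that accompanies class II molecules, was at 79.7, 269.6, 164 and 22.1 RPKM. For all 4 of these genes control 2 was highest and control 3 came after it. Ciita, the class II transactivator, was at 0.751, 0.0353, 0 and 0 RPKM and did not follow this order. H2-DMa, which loads peptides onto class II molecules, was at 84.2, 185, 164 and 281 RPKM and highest in control 4. Id2, a regulator of dendritic and innate lymphoid cells, was at 22.6, 197, 56.7 and 107 RPKM.

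Several other genes of the conventional dendritic list were under 1 RPKM in most libraries. Itgax, the CD11c gene, was at 0, 1.43, 0.0398 and 0.4301 RPKM. Batf3, a factor of cross-presenting cells, was at 0.0518, 8.03, 0 and 0 RPKM. Clec10a, a lectin, was at 0, 2.14, 0 and 0 RPKM, and Itgax, Batf3 and Clec10a were detected in control 2 alone. Cd86, of the same list, was at 0.712, 6.11, 16.1 and 42.9 RPKM and highest in control 4. Of 19 list members detected in any library, 12, or 63.2%, were highest in control 2, against 21.1% of all such genes. Control 1 was highest for 4 members and control 4 for 3. Zbtb46, a factor of conventional dendritic cells, was at 3.74, 0, 0.1202 and 0.0104 RPKM and detected in control 1 alone. Cd40, a costimulatory receptor, was listed at 0 in all 4 libraries. The summed level of the list was 333 to 1113 RPKM, and the part of a few dendritic or B cells in the class II values was not tested.

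**Figure D3:**
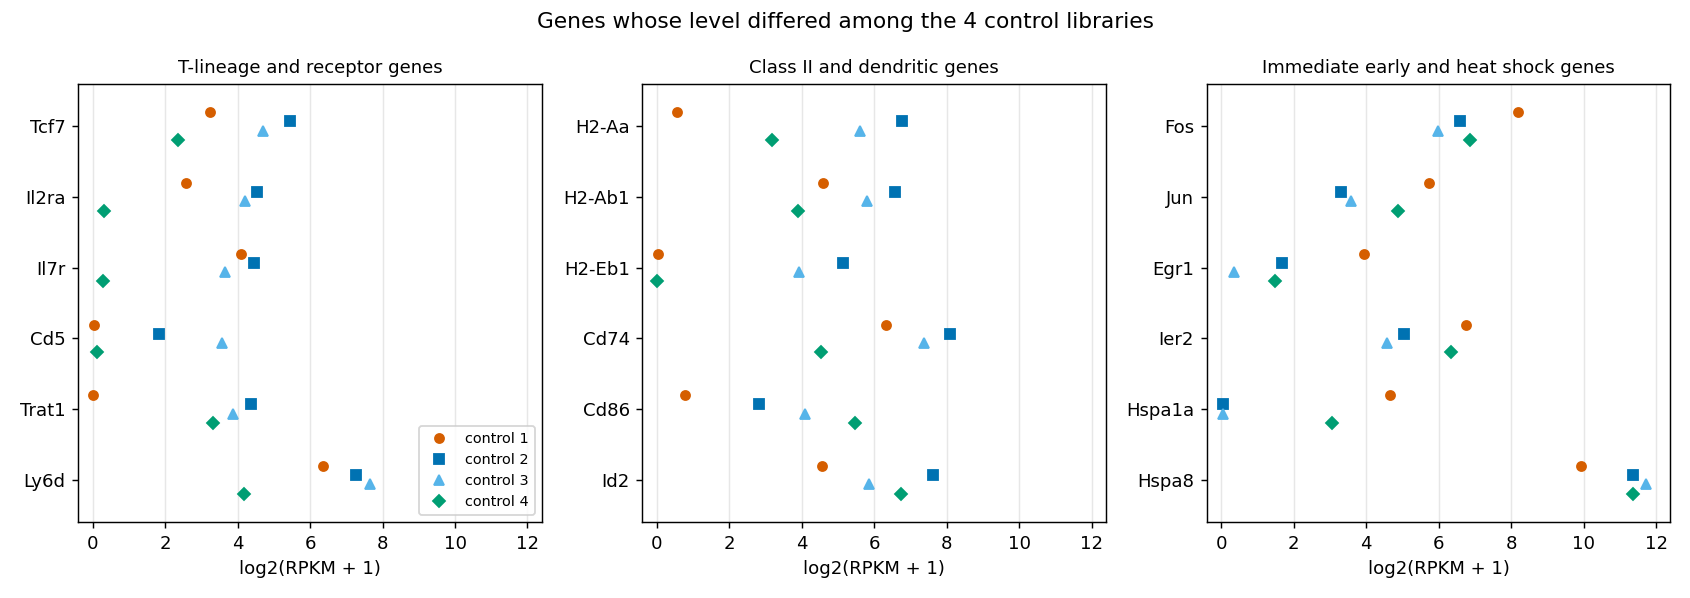
Genes that differed in level among the 4 control libraries, shown as log2(RPKM + 1) on the x axis with 1 symbol per library, the genes having been picked after their values were seen. Class II genes run highest in control 2, and Fos, Jun, Egr1 and Ier2 highest in control 1.

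Genes of other cells were measured as well. Among natural killer and innate lymphoid genes 5 of 14 with a row, or 35.7%, were detected in all 4 libraries, against 58.8% of all genes. Nkg7, a cytotoxic granule membrane gene, was at 780.4, 1192, 1255 and 1627 RPKM and made up most of the summed level of 871 to 1865 RPKM. Klrd1, a lectin receptor, was at 15.9, 30.996, 26.1 and 70.5 RPKM, and both were highest in control 4. Ccl5, a chemokine gene, was at 0, 7.09, 14.6 and 8.67 RPKM. Eomes, a defining factor of natural killer cells, was under 1 RPKM in every library, and Prf1, perforin, was detected in control 2 alone. B-lineage genes had 4 of 12, or 33.3%, detected in all 4 libraries and a sum of 261 to 346 RPKM. Cd37, a tetraspanin of lymphocytes, was at 145, 164, 177 and 161 RPKM. Cd79b, a B-cell receptor subunit, was at 52.6, 98.2, 59.5 and 86.7 RPKM. Blk, a kinase of that receptor, was at 10.8, 11.6, 13.2 and 0.518 RPKM. Vpreb1, of the surrogate light chain, was under 1 RPKM in every library. Ebf1, Pax5 and Cd79a had no row and were not analysed here.

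Macrophage genes were the lowest programme, with 1 of 12, or 8.33%, detected in all 4 libraries, against 58.8% of all genes. Their median of medians was 0.0173 RPKM and their sum 20.4 to 49.1 RPKM. C1qb, a complement chain, was at 22.8, 0.709, 13.1 and 16.9 RPKM. Its partner chain C1qa stayed under 1 RPKM in every library and C1qc was detected in control 3 alone. Adgre1, the F4/80 antigen, listed under its older symbol Emr1, stayed under 1 RPKM in every library. Spic, a factor of red pulp macrophages, was at 0, 0, 11.1 and 0.0274 RPKM. The part of macrophages in the other values was not tested.

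Erythroid and megakaryocyte genes had 4 of 13, or 30.8%, detected in all 4 libraries, against 58.8% of all genes. Their sum was 223 to 632 RPKM. Most of it came from Car2, carbonic anhydrase, at 133, 508, 382 and 475 RPKM. Nfe2, a factor of both lineages, was at 24.1, 80.01, 57.6 and 14.9 RPKM. The haemoglobin gene Hbb-bs, matched by the older symbol Beta-s and with near-identical copies, was at 0.289, 1.18, 0 and 0 RPKM. Pf4, a platelet factor gene, was listed at 0 in all 4 libraries. Among genes of thymic stroma 4 of 12, or 33.3%, were detected in all 4 libraries, with a sum of 136 to 237 RPKM. Vim, vimentin, which blood cells also express, was at 169, 183, 139 and 94.4 RPKM. Pdgfrb, a receptor of mesenchymal cells, was at 38.8, 20.4, 16.6 and 15.2 RPKM. Pecam1, an adhesion molecule of endothelium and blood cells, was at 14.3, 30.4, 33.2 and 12.7 RPKM. Psmb11, the proteasome subunit of cortical epithelium, was at 3.499, 1.54, 1.36 and 3.05 RPKM, while Cdh5, the endothelial cadherin, and the cytokine gene Il7 were listed at 0. The part of red cells, platelets and stroma in the other values was not tested.

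**Figure D4:**
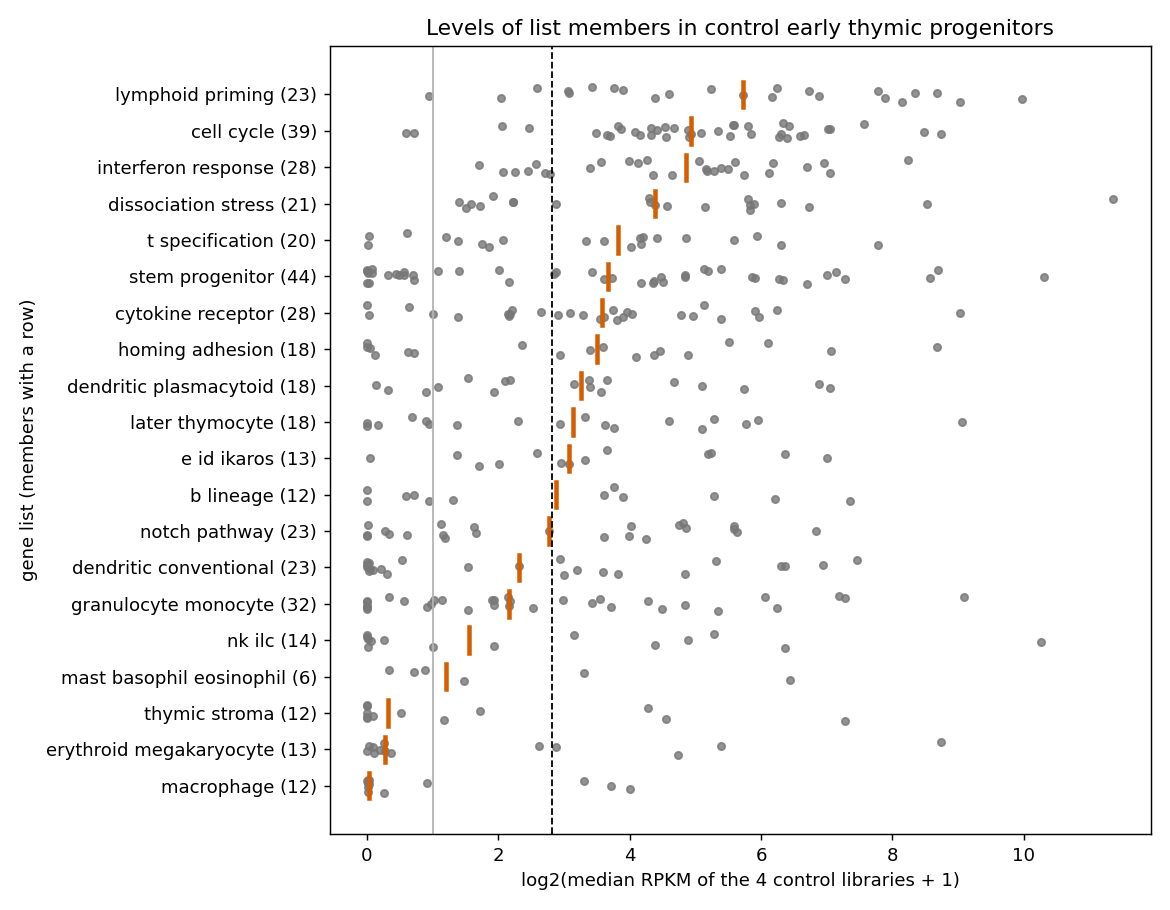
Each point is 1 list member with a row, at log2(median RPKM of the 4 control libraries + 1) on the x axis, with the list's median as a vertical bar. The dashed line is the median of all 13016 genes, 6.05 RPKM, and the grey line 1 RPKM. Lymphoid priming, which includes the markers Dntt, Cd7 and Flt3, lies highest of these lists, at 51.7 RPKM, and macrophage genes lowest.

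Receptors for thymus homing and for cytokines were measured next. Of 18 homing and adhesion genes with a row 11, or 61.1%, were detected in all 4 libraries, near the 58.8% of all genes. Selplg, the P-selectin ligand, was at 86.8, 126, 140.04 and 158 RPKM. Cd44, a receptor for hyaluronan, was at 52.5, 82.7, 44.7 and 89.6 RPKM. Ccr9, a chemokine receptor that leads progenitors to the thymus, was at 11.4, 7.69, 11.6 and 5.72 RPKM. Ccr7, another such receptor, was at 7.52, 3.63, 6.45 and 6.84 RPKM, in a range that overlapped that of Ccr9. Cxcr3, a chemokine receptor of effector lymphocytes, was at 0, 0.967, 7.28 and 19.6 RPKM. Cxcr6, a related receptor, was at 11.5, 0, 0 and 0 RPKM, with reads in control 1 alone. Among 28 cytokine receptor genes with a row, 19, or 67.9%, were detected in all 4 libraries. Il1r1, an interleukin-1 receptor, was nearly even at 42.6, 44.98, 38.2 and 39.02 RPKM. Ifngr1, an interferon gamma receptor chain, was at 48.2, 57.9, 71.8 and 65.6 RPKM. Il9r, the interleukin-9 receptor chain, was listed at 0 in all 4 libraries.

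E-proteins and Id proteins bind each other, and their genes were measured beside the Ikaros family. Of 13 genes with a row 10, or 76.9%, were detected in all 4 libraries, against 58.8% of all genes. Tcf12, an E-protein gene, was at 7.26, 7.54, 9.06 and 3.44 RPKM. Tcf3, which encodes the E2A proteins, was at 11.8, 2.25, 4.88 and 5.13 RPKM. Id2 was above Tcf3, Tcf4 and Tcf12 in every library. Id1 was at 4.45, 0, 0.043999 and 7.53 RPKM, detected in control 1 and 4. Id3, a target of receptor signals in later thymocytes, was at 1.93, 0, 1.26 and 9.34 RPKM and undetected in control 2. Ikzf2, the Helios gene, was at 15.5, 10.6, 2.702 and 7.42 RPKM.

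Cell cycle genes were detected almost without exception, 37 of 39, or 94.9%, in all 4 libraries, against 58.8% of all genes. Their median of medians was 29.5 RPKM. Cdk4, a kinase of the G1 phase, was at 246, 455, 584 and 399 RPKM. Pcna, the replication clamp, was at 329.5, 326, 381 and 477 RPKM. Mcm7, of the replicative helicase, was at 104, 154, 222 and 223 RPKM. Top2a, a mitotic topoisomerase, was at 84.7, 67.7, 57.5 and 87.7 RPKM. Mki67, the Ki-67 antigen, was at 28.4, 29.5, 19.3 and 20.5 RPKM. Ccnb2, a mitotic cyclin, had the widest range at 23.04, 133, 160.2 and 37.1 RPKM. Plk1, a mitotic kinase, was at 36.1, 15.4, 5.82 and 28.9 RPKM. Ccnb1, the other cyclin of that type, varied by less than a factor of 2, at 81.8, 84.3, 85.9 and 60.7 RPKM. Among inhibitors Cdkn1b, which holds cells in G1, was at 89.2, 46.5, 49.98 and 59.9 RPKM. Cdkn1a, the p53 target, was at 0.346, 0.669, 0.0396 and 1.91 RPKM.

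Immediate early and heat shock genes, which cell isolation can induce, ran highest in control 1. Of 21 genes with a row 16, or 76.2%, had their highest value in control 1, against 31.1% of all genes detected in any library. Fos, an immediate early factor, was at 289, 94.6, 62.6 and 116 RPKM. Jun, its partner, was at 51.9, 8.97, 11.1 and 28.7 RPKM. Ier2, another immediate early gene, was at 108, 32.2, 23.02 and 80.3 RPKM, and control 4 came after control 1 for all 3. Egr1, also of this class, was at 14.2, 2.22, 0.274 and 1.78 RPKM. The heat shock gene Hspa1a was at 24.1, 0.0359, 0.04298 and 7.31 RPKM. Its near-identical copy Hspa1b, with which it can share reads, was at 26.3, 0.0357, 0.0143 and 5.54 RPKM, and both were near 0 in control 2 and 3. Hspa8, a constitutive member of that family, went the other way at 982, 2626, 3352 and 2627 RPKM, lowest in control 1. Control 1 and 4, the libraries with the higher Fos, Jun and Ier2, were also those with the lower Tcf7, Il2ra and Cd7. Those 3 genes were picked after their values were seen. Ptcra was instead higher in control 1 and 4, and Thy1 and Runx3 were highest in control 1. Of 20 T specification genes, 5, 6, 5 and 4 had their highest value in control 1, 2, 3 and 4. The part of isolation stress in these differences was not tested.

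Interferon response genes were broadly detected. Of 28 genes 25, or 89.3%, were detected in all 4 libraries, against 58.8% of all genes. None was missing from all, and the median of medians was 28.1 RPKM. Rtp4, an interferon-induced chaperone gene, was at 80.4, 359, 309 and 295 RPKM. Ifi27l2a, a strongly inducible gene, was at 89.6, 209.7, 123 and 125 RPKM. Usp18, a feedback protease of the pathway, was at 16.2, 145, 113 and 94.2 RPKM. Control 1 was lowest for these genes and for 57.1% of the list, against 35.03% of all genes detected in any library. Ifit3, an antiviral gene, had the widest range, at 0.129, 24.8, 9.07 and 2.72 RPKM. Mx2, an antiviral GTPase gene, was at 1.26, 18.6, 4.002 and 3.56 RPKM, and both were highest in control 2. Stat2, a factor of the pathway itself, went against this, at 17.7, 1.27, 2.96 and 6.91 RPKM and highest in control 1.

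Over the whole table, predicted genes and pseudogenes left out, the 10 widest ranges on the log2 scale included H2-Aa, H2-Eb1 and 8 genes of no list. Gpr18, a G-protein-coupled receptor, was at 1.15, 63.2, 33.2 and 117 RPKM. Scimp, an adaptor of antigen-presenting cells, was at 0, 22.97, 2.28 and 39.02 RPKM. Rad51ap1, a recombination repair gene, was at 0.241, 17.3, 15.01 and 46.6 RPKM. Commd10 was at 0.1905, 50.4, 36.7 and 14.3 RPKM and Zfand2b at 0.0284, 35.3, 29.7 and 36.2 RPKM. For these 5 genes control 1 was the lowest library. Rassf1, a tumour suppressor, was at 9.799, 39.1, 58.8 and 0.358 RPKM. Srfbp1 was at 11.1, 15.7, 39.3 and 0.0473 RPKM and Glipr2 at 13.3, 18.6, 64.4 and 0.755 RPKM. These 3 genes were under 1 RPKM in control 4 alone, and over 9 in the other libraries. For the 11 list members listed at 0 in all 4 libraries, 3 reads are the limit that a count of 0 allows. That limit was 0.0219 to 0.256 RPKM, depending on length and library, and covers counting error only.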

How the data were processed

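Messenger RNA of 100 sorted cells per library was made into full-length libraries with the SMARTer protocol, per the labels' protocols. Named in the submitters' processing notes are the build mm10, HTSeq 0.5.4p5, SAMtools 0.1.19 and TopHat2 2.0.10. RPKM values of 13016 genes were deposited by the authors. The labels do not say how these genes were picked.

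For all 13016 genes the RPKM values of the 12 libraries were whole reads, within 0.02, divided by a whole gene length and a total per library. That total was 1.15, 0.994, 0.965 and 1.03 times the recovered reads of control 1 to 4. Factors from a trimmed mean of M-values computed on these reads differed from the 12 by at most 0.0201%. The recovery was tested on simulated data. The results are descriptions of 1 group, and the only test is Dixon's, for a library apart.

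Of 458 symbols in 21 lists 364 had a row, 3 by an older symbol. Genes named are the 4 markers, the 25 highest medians, the 10 largest ranges of log2(RPKM + 1), and per list the 4 highest, the 2 widest and those at 0. The ranges count only genes that reach 10 RPKM in a library. Predicted genes and pseudogenes, told by their symbols, were left out of the 25 highest medians and the 10 largest ranges. Further list members were named after their values were seen, and the text leaves out some the rule gives. Some genes are not reported here. Lists and rules were chosen with earlier results of these data known. Positions are from GENCODE release M21 on GRCm38. Calculations used Python 3.11.15, numpy 2.4.6, pandas 2.3.3, scipy 1.17.1 and matplotlib 3.10.9. The alternatives were other detection levels, pseudocounts, filters and scalings, and leaving out each library.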

Additional observations from a re-analysis of the deposited data

Results flagged for a closer look

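In 9 of 132 named genes that reached 1 RPKM, 1 library lay further from the rest than Dixon's 95% limit for 4 samples allows. Chance gives about 1 in 20 for genes not picked by their spread. Cxcr6, Ltf, Mx2 and Spic were named for a wide range over these same libraries, so that rate cannot be set against the count. Control 1 was the library apart for 4 of them. It was low for the apolipoprotein gene Apoe, with 0.295, 11.4, 13.4 and 13.04 RPKM, for Lyz2, with 46.4, 150.4, 159 and 164, and for Rps14, with 4389, 5097, 5172 and 5066. It was high for Cxcr6, with 11.5, 0, 0 and 0 RPKM. Control 4 was high for Cd48, with 1183, 1175, 1343 and 2377 RPKM, and for Ltf, lactoferrin, with 0, 0.933, 0.0146 and 13.1. Control 2 was high for Mx2, with 1.26, 18.6, 4.002 and 3.56 RPKM. Control 3 was high for Spic, with 0, 0, 11.1 and 0.0274 RPKM, and low for Cd244, a natural killer receptor, with 39.1, 37.1, 26.5 and 38.6.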

How the results depend on the processing

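Of 213 recomputed values 203 stayed within 1.5 times a count or 1 SD of a value. With a pseudocount of 0.1 RPKM the mean r between libraries was 0.761. Leaving out 1 library at a time put the genes at 0 in all remaining libraries at 251 to 306, since fewer libraries were asked. It also put the mast cell and basophil genes detected in every library at 1 to 2, and the macrophage genes at 1 to 2. Detection at 0.5 RPKM gave 2 for each of these lists. The mean r was 0.815 to 0.883 without 1 library, and genes detected in every library numbered 7887 to 8124. Genes detected in all 4 libraries were 8415 at 0.5 RPKM and 6709 at 2 RPKM. The marker means moved by less than 1 SD under each alternative run. Leaving out 1 of 4 libraries gives this for any values, so it says nothing on how stable the markers are. The means without 1 library were 802 to 1132 RPKM for Dntt and 194 to 275 for Cd7. For Flt3 they were 67.8 to 86.6 RPKM and for Kit 54.1 to 62.5. Rescaling the libraries to 1 sum of RPKM multiplied control 1 to 4 by 1.16, 0.949, 0.915 and 1.00 and left 7661 genes detected in all 4. No paired analysis was possible because the results describe 1 group and come from no test between groups. At 20050073 reads or more per library, counting error was smaller than the spread between libraries in each abundance class above 1 RPKM, and the sources of that spread were not tested.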
